A study of Mus musculus with 24 samples.

Results

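Heat shock proteins and chaperones were followed here as a set of 34 genes, chosen by name, out of 53465 gene identifiers in the deposited count table. The set holds cytosolic Hsp70, Hsp110 and Hsp90 proteins, 1 small heat shock protein, J-domain partners, cochaperones, the heat shock factors Hsf1 and Hsf2, and the chaperones of mitochondria and of the endoplasmic reticulum (ER). The choice used gene names and no measured value, and all 34 passed the filter on low counts. RNA was measured by RNA-seq in natural killer (NK) cells, lymphocytes of the innate immune system with killing activity, sorted from subcutaneous flank tumours of B16F10, an established mouse melanoma line, 14 days after the tumours were started. All hosts were female wild-type B6 mice, no group carried a transgene or a drug treatment in the labels, and no age was given. CD11b+ and CD27+ cells were each sorted into a CD69- and a CD69+ population (written CD11b+CD69- and so on), which makes 4 groups of 6 libraries. CD11b marks mature and CD27 less mature NK cells, and CD69 is an early activation and tissue-retention marker. Each library came from 100 sorted cells, amplified as full-length cDNA. The labels do not say whether replicates came from separate mice, so p-values measure the spread between these samples, which may be partly technical.

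Chaperones bind unfolded or partly folded proteins, keep them from aggregating and pass them on for folding or destruction. Hsp70 proteins work with J-domain proteins, which deliver clients and trigger ATP hydrolysis, and with nucleotide exchange factors, which reset the cycle; Hsp90 then finishes kinases, receptors and other signalling clients with the help of cochaperones. Unfolded protein in the cytosol releases heat shock factor to switch on the inducible members, whereas unfolded protein in the ER switches on a separate ER set, and mitochondria hold their own Hsp70 and the Hsp60 and Hsp10 chaperonin. In lymphocytes these genes are known to respond to activation and secretion, and also to the handling of tissue.

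Total counts ran from 1213914 to 2671533 per library with a median of 2213433, so 1 count was worth less than 1 CPM (counts scaled to a common library size) in every library. The 8 NK cell marker genes together gave 22001 to 32469 CPM in CD11b+ and 8593 to 14884 CPM in CD27+ libraries, with no overlap. The part of this difference in the results below was not tested. All 8 were detected in each population, although the labels give the cell type as melanoma. One library stood apart: CD27+CD69- replicate 6 had the fewest counts, the least NK marker RNA (8593 CPM, against 12010 to 14884 in its 5 sister libraries) and the most melanoma marker RNA (5583 CPM for 7 genes, against 1.33 to 272 in its sisters and at most 58.8 elsewhere). The CD27+CD69- population also carried fibroblast marker RNA, 0 to 8425 CPM for 8 genes with replicate 5 at 0, whereas no library of the other populations exceeded 7.99 CPM. All 8 fibroblast and all 7 melanoma markers had counts in CD27+CD69- libraries; all 8 fibroblast markers were at 0 in CD11b+CD69+ libraries. CD27+CD69- replicate 5, at 0 for fibroblast markers, had 59.1 CPM for 4 endothelial cell markers and 160 CPM of melanoma markers. No other library had more than 0.486 CPM of endothelial markers. T cell marker RNA was also higher in CD27+ libraries (289 to 1801 CPM) than in CD11b+ libraries (19.4 to 195 CPM), and its part in the results below was not tested. Members called in a comparison that uses CD27+CD69- libraries are therefore given with and without replicate 6 of that population, and other genes where leaving it out ends the call. Some fits below use the fibroblast and melanoma sums as covariates. The fibroblast sum was high in all CD27+CD69- libraries but replicate 5, and in no other library. Such a fit can therefore also remove that population's own difference. Where a call is lost or a sign reverses in it, marker RNA and population cannot be told apart. In these bulk libraries, fewer cells of a type and less RNA per cell cannot be told apart.

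Upstream sequences of RefSeq (GRCm38.p6), covering 250 bases before the annotated start, were found for 28 of the 34 members; Hspa8, Hspa9, Hspa13, Hsp90aa1, Hsp90ab1 and Hsf1 had no entry. Shown first are the inducible Hsp70 pair, which lie close together on chromosome 17 and have upstream windows that differ at 3 of 250 bases (98.8% identical), and Hspb1, the member with the largest coefficient of variation between replicates. Capitals mark a pair of heat shock units, GAANNTTC or TTCNNGAA, the inverted repeat that heat shock factor recognises; in Hspa1a and Hspa1b it begins 104 bases before the start, and in Hspb1 the pairs begin 117 and 97 bases before it. These windows are chr17:34972157-34972406 (minus strand) for Hspa1a, chr17:34959239-34959488 (minus strand) for Hspa1b and chr5:135887669-135887918 (plus strand) for Hspb1.
Hspa1a: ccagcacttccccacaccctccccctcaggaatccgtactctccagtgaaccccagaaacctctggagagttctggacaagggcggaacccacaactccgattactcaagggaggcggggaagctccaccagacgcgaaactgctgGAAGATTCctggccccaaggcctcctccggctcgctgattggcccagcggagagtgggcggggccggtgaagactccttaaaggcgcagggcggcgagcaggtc
Hspa1b: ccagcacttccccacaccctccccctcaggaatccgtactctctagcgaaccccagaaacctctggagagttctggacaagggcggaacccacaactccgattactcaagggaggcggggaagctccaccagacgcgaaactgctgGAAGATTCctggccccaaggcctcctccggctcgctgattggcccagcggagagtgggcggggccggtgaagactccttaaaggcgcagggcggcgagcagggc
Hspb1: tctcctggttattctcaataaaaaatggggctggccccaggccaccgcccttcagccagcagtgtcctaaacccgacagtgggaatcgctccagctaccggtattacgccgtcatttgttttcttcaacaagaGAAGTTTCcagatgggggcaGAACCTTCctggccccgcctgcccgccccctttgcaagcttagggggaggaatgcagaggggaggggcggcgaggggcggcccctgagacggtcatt

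The mitochondrial chaperonin genes Hspe1 and Hspd1 face away from each other, and their exons overlap on opposite strands. The window chr1:55088053-55088082 (plus strand), inside an annotated exon of Hspd1, holds overlapping full heat shock elements (TTCNNGAANNTTC or GAANNTTCNNGAA, in capitals) that begin 89 bases before the start of Hspe1. An ER counterpart is Hsp90b1, shown because its window chr10:86705510-86705694 (minus strand, 185 bases, which leaves out the 65 bases nearest the RefSeq start) holds 2 copies of the ER stress response element, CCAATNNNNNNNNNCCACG or its reverse complement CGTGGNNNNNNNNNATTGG, again in capitals.
Hspe1: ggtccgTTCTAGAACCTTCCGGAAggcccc
Hsp90b1: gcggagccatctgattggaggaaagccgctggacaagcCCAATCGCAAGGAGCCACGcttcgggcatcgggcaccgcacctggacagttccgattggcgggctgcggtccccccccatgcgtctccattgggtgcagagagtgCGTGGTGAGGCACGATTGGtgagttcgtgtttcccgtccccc

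Searched on both strands, the full heat shock element was found in 2 of 28 members (Dnajb6 and Hspe1, 7.14%) and in 0.466% of all 32851 windows. The ER stress response element was found in 3 of 28 (Hspa5, Hsp90b1 and Dnajc3, 10.7%) and in 0.113% of all windows. The shorter pair of units, which is part of the full element and was added after the full element was found in few members, was present in 8 of 28 (28.6%; Hspa1a, Hspa1b, Hsph1, Hspb1, Dnaja1, Dnajb6, Fkbp4 and Hspe1) against 12.8% of all windows. A window before the RefSeq start can still lie in annotated exons, as for Hspe1 above. So did the matches of Dnajb6 (250 bases in exons), Hsph1 (the 40 bases nearest the start) and Hspa5 (the 120 nearest the start). The windows of Dnaja1 and Fkbp4 had 218 and 171 bases in exons. A match describes letters in a window and does not show binding.

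Abundance spanned several orders of magnitude across the set. Per kilobase of exon, the constitutive cytosolic Hsp90 gene Hsp90ab1 had the highest level, 536 CPM per kb as a mean over 24 libraries, followed by the constitutive Hsp70 gene Hspa8 (452) and the ER Hsp70 gene Hspa5, also called BiP (411). Next came Bag1 (239), an Hsp70 nucleotide exchange factor, Hsp90aa1 (175), the inducible Hsp90, Stip1 (165), which bridges Hsp70 and Hsp90, and Hsp90b1 (145), the ER Hsp90. Hsf2 was lowest, with 0.477 CPM per kb. Of their 50-base windows, 52.7% in Hspa8 and 58.5% in Hsp90aa1 also occur in another gene, against 4.49% in Hsp90ab1 and 0% in Hspa5. Reads in shared windows may go uncounted, and their part in this order was not tested. Summed over the set, the 34 genes took 1.10% and 1.29% of counts in the CD69- and CD69+ libraries of CD11b+ cells, and 1.20% and 1.07% in those of CD27+ cells. These are means, and the CD27+CD69- one includes replicate 6 at 17533 CPM, where the median of that population was 11293 CPM. By population mean, CD11b+CD69+ was highest of the 4 in 15 members and lowest in 1, and CD27+CD69+ was highest in 3 and lowest in 12. CD27+CD69- was highest in 11 and lowest in 10, and CD11b+CD69- highest in 5 and lowest in 11. Replicate 6 weighs on these CD27+CD69- ranks. Without it the CD27+CD69- means of Hsp90aa1, Dnaja1, Fkbp4, Hspe1 and Hspb1 fell below that of another population. For Hsp90aa1 the mean became 568 CPM, against 723 CPM in CD11b+CD69+ libraries. The other members highest in CD27+CD69- libraries remained so.

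**Figure D1:**
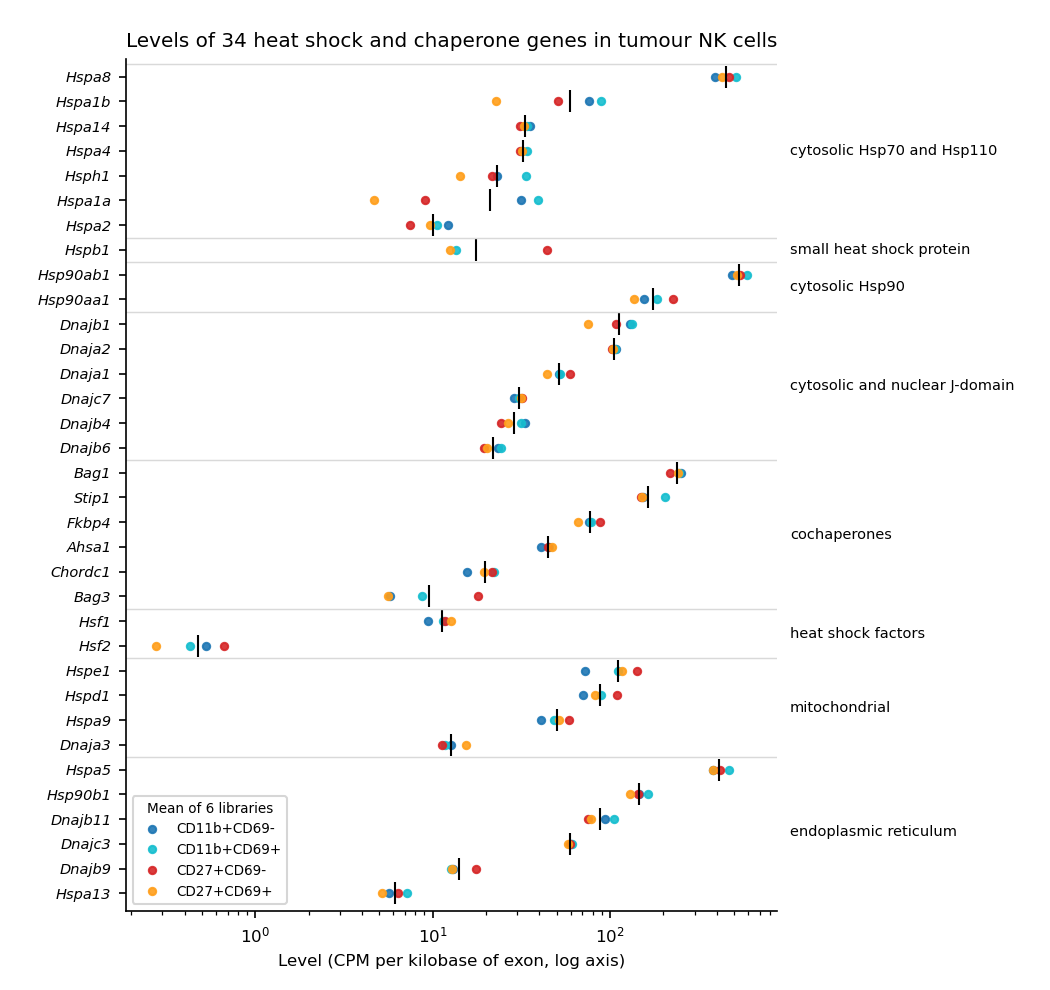
Level of each member in CPM per kilobase of exon (log axis), ordered within compartments; coloured points are the means of 6 libraries per population and the black bar is the mean of all 24. Hsp90ab1, Hspa8 and Hspa5 stand highest and Hsf2 lowest; the CD11b+CD69- mean of Hspb1 is 0 and cannot be drawn on this axis.

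Spread between replicates also differed between members. The median coefficient of variation within populations was 7.24% for Dnajb11, an ER J-domain protein, 10.4% for Hsp90b1 and 12.5% for Hspa5. It reached 93.4% for Hspa1a, 100.4% for Hsf2 and 183% for Hspb1. By compartment the middle value was 12.0% for the 6 ER members, 17.1% for the 6 cytosolic and nuclear J-domain members and 44.5% for the 7 Hsp70 and Hsp110 members.

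Few members differed between populations by edgeR's quasi-likelihood test at an adjusted p under 0.05, with adjustment over all 10536 genes tested. Among CD69- cells, which compares less mature with mature NK cells without the activation marker, 2 of 34 members were higher in CD27+ libraries (Hspb1 and Hspe1; 7.46% of all genes) and 1 was lower (Dnajb11; 4.92% of all genes). Over all genes that comparison called 786 higher and 518 lower, or 987 and 398 when library sizes were used without TMM scaling. Among CD69+ cells no member was higher (0.987% of all genes) and 2 were lower in CD27+ libraries (Dnajb1 and Dnajb11; 0.911% of all genes). In the test of any difference among the 4 populations 2 members passed, Dnajb11 (adjusted p = 0.00167) and Dnajb1 (adjusted p = 0.0225), against 14.1% of all genes. Without CD27+CD69- replicate 6 both passed (adjusted p = 0.00151 and 0.00955), and Hsph1 did too (adjusted p = 0.0256).

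Comparing CD69+ with CD69- cells asks how chaperone RNA goes with activation or retention in the tumour. In CD11b+ cells 0 of 34 members passed by edgeR (2.74% of all genes), 1 by DESeq2 (Hspb1) and 0 by limma-voom. At an unadjusted p under 0.05 there were 6, all higher in CD69+ libraries (Chordc1, Hspa5, Hspa8, Hspb1, Hspe1 and Stip1; 17.6%, against 13.9% of all genes). DESeq2 gave 6 (17.6%, against 14.9% of all genes) and limma-voom 4 (11.8%, against 16.5%). In CD27+ cells 0 members passed by edgeR (1.85% of all genes), and 0 by DESeq2 and by limma-voom. There, 5 had an unadjusted p under 0.05, all lower in CD69+ libraries (Bag3, Dnaja1, Dnajb1, Fkbp4 and Hsp90aa1; 14.7%, against 11.0% of all genes). DESeq2 gave 7 (20.6%, against 11.1% of all genes) and limma-voom 2 (5.88%, against 11.7%). The fit without CD27+CD69- replicate 6 gave 0 (9.55% of all genes).

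The CD69 difference itself was compared between CD27+ and CD11b+ cells. No member passed by edgeR (0.579% of all genes), DESeq2 or limma-voom. At an unadjusted p under 0.05 there were 10, all with a lower CD69 difference in CD27+ cells: Bag3, Chordc1, Hsp90aa1, Hsp90b1, Hspa5, Hspa8, Hspb1, Hspd1, Hspe1 and Hsph1 (29.4%, against 9.46% of all genes). DESeq2 gave 12 (35.3%, against 10.3% of all genes) and limma-voom 6 (17.6%, against 11.2%). The number was 6 without CD27+CD69- replicate 6 (17.6%, against 8.37% of all genes). It was 1 with the summed fibroblast and melanoma marker levels as covariates (2.94%, against 4.64%).

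Medians over the set describe it as a whole. For CD69+ against CD69- libraries the median log2 difference over members was 0.17 in CD11b+ cells, with 26 of 34 members above 0 (all genes 0.00, 49.7% above 0). In CD27+ cells it was -0.17, with 11 above 0 (all genes -0.01), and it was -0.09 without CD27+CD69- replicate 6 and 0.10 with the marker covariates. CD27+ libraries differed from CD11b+ libraries by a median of 0.16 among CD69- cells (all genes 0.05), which became -0.02 without that library and -0.23 with the covariates. Among CD69+ cells the median was -0.21 (all genes 0.02), with 27 members below 0, and it was -0.21 without that library and -0.27 with the covariates. These medians are descriptions, since members share libraries, and comparisons that share a population share its libraries.

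**Figure D2:**
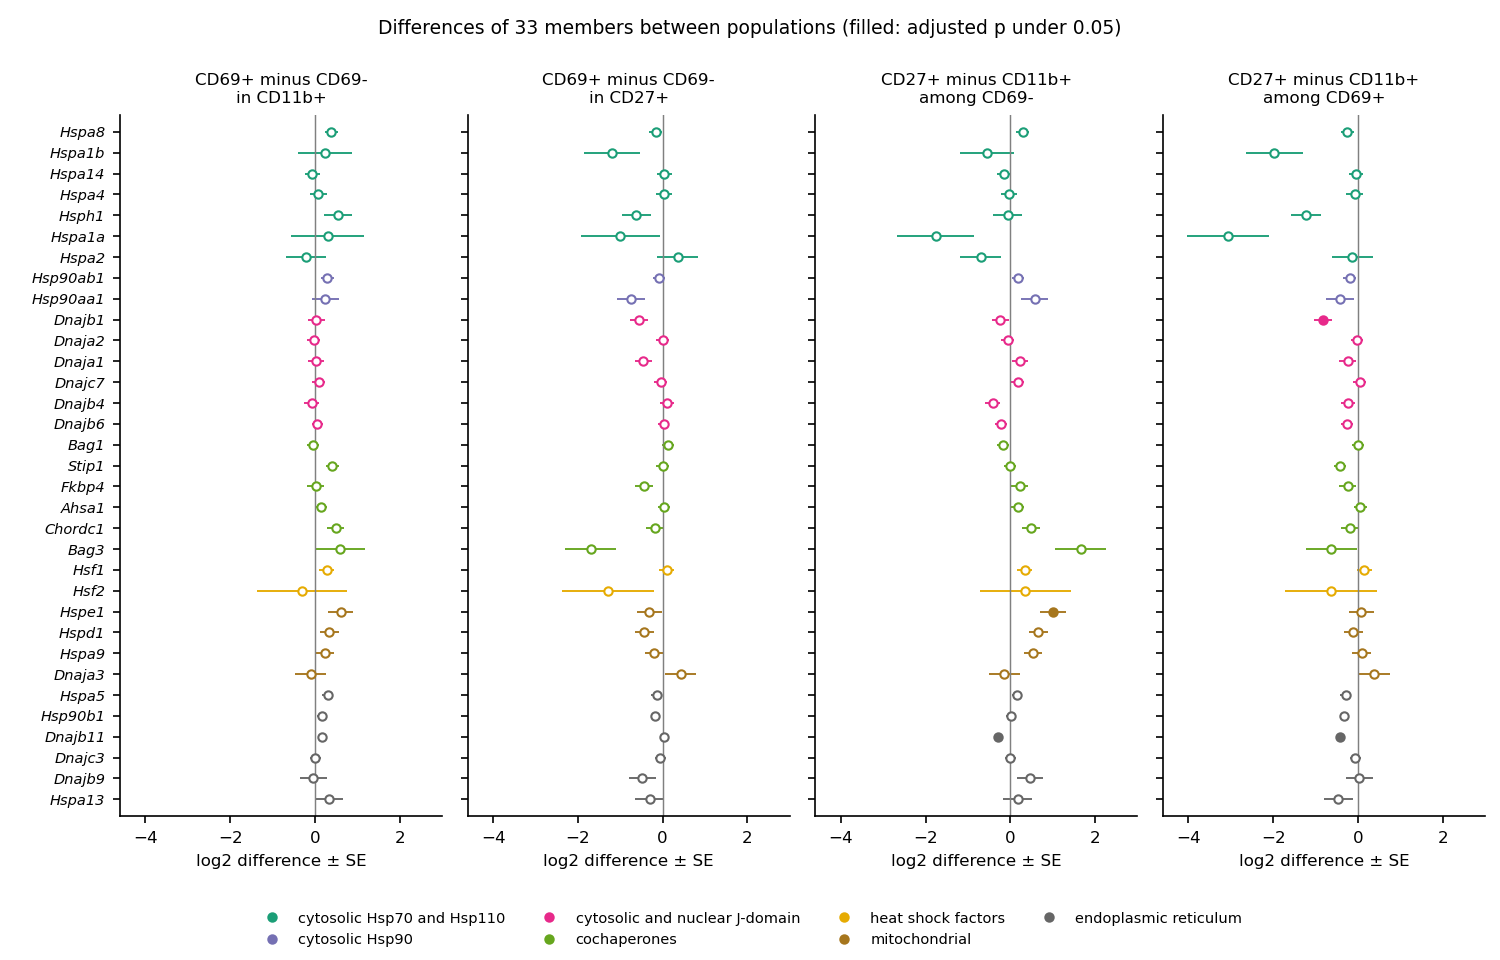
Log2 difference with its standard error for 33 members in each of 4 comparisons between populations, coloured by compartment; filled points have an adjusted p under 0.05 and Hspb1 is left out because its fitted difference is no measure of size. Filled are Hspe1 and Dnajb11 among CD69- cells and Dnajb1 and Dnajb11 among CD69+ cells; most open points lie above 0 in the first panel and below 0 in the last.

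The inducible Hsp70 genes Hspa1a and Hspa1b varied widely between replicates. Hspa1a (ENSMUSG00000091971, GRCm38 chromosome 17, 34969190 to 34972156, minus strand) had 2.45 to 236 CPM (median 79.7) in CD11b+CD69- and 5.39 to 267 CPM (median 76.0) in CD11b+CD69+ libraries. It had 0.920 to 80.1 CPM (median 23.0) in CD27+CD69- and 4.02 to 28.2 CPM (median 10.0) in CD27+CD69+ libraries. All 6 CD27+CD69+ libraries lay below the CD11b+CD69+ median, but the groups overlapped because CD11b+CD69+ replicates 1 and 5 were as low as some of them. The log2 difference among CD69+ cells was -3.06 (SE 0.96), with adjusted p = 0.119 by edgeR and 0.0298 by DESeq2, the only one of 15 alternatives in which it passed. DESeq2 also called Hspa1a for any difference among the populations.

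Hspa1b (ENSMUSG00000090877, chromosome 17, 34956436 to 34959238, minus strand) had medians of 250.1 CPM (CD69-) and 148 CPM (CD69+) in CD11b+ cells, and of 154 and 67.6 CPM in CD27+ cells. Its ranges were 16.6 to 338, 56.8 to 548, 12.9 to 216 and 24.8 to 103 CPM in that order. All 6 CD27+CD69+ libraries were again below the CD11b+CD69+ median and the groups overlapped; the log2 difference was -1.97 (SE 0.67, adjusted p = 0.164). The transcripts are nearly the same: 66.3% of the 50-base windows of Hspa1a and 62.3% of those of Hspa1b also occur in another gene, mostly in each other, so the split of reads between the pair is uncertain. Summed, the pair had medians of 355, 224, 173 and 72.8 CPM in the same order of populations. Hspa1a made up 12.8 to 41.1% of the pair's counts in CD11b+CD69- libraries and 1.55 to 27.1% in CD27+CD69- libraries.

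Hsph1 (ENSMUSG00000029657), an Hsp110 protein that recharges Hsp70 with ATP, ran from 53.8 to 306 CPM (median 159) in CD11b+CD69- and from 71.7 to 355 CPM (median 262) in CD11b+CD69+ libraries. In CD27+CD69- libraries it ran from 90.2 to 327 CPM (median 136.5), and in CD27+CD69+ libraries from 75.0 to 132 CPM (median 105). CD11b+CD69+ replicate 5 was below all CD27+CD69+ libraries, and its 5 sisters lay above all of them. The log2 difference among CD69+ cells was -1.22 (SE 0.34), with adjusted p = 0.0667, and it passed in 7 of the alternatives, among them DESeq2 (adjusted p = 0.0151) and the fit without replicate 5 (-1.42, adjusted p = 0.00874). Both CD11b+ libraries of replicate 5 were the lowest of their populations in Hspa1a, Hspa1b and Hsph1.

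Hspa8, the constitutive Hsc70, had 1299 to 2051 CPM (median 1707) in CD11b+CD69- and 1721 to 2724 CPM (median 2222) in CD11b+CD69+ libraries. All 6 CD69+ libraries lay above the CD69- median and the groups overlapped. The log2 difference was 0.39 (SE 0.15), with adjusted p = 0.210. In CD27+CD69- libraries Hspa8 had 1502 to 3297 CPM (median 1770.0) and in CD27+CD69+ libraries 1554 to 2064 CPM (median 1885). Hspa4, another Hsp110 protein, had medians between 169 and 191 CPM in the 4 populations, and its differences lay between -0.08 and 0.08 in all 4 comparisons. Hspa14, a ribosome-associated Hsp70, and Hspa2, best known from the testis, passed in no comparison. All 7 members of this group were below 0 in CD27+ against CD11b+ cells among CD69+ cells, with a median of -0.25, where 5069 of the 10536 genes were below 0.

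Hspb1 (ENSMUSG00000004951, chromosome 5, 135887919 to 135889563, plus strand), the small heat shock protein that holds unfolded proteins without ATP, had 0 counts in all 6 CD11b+CD69- libraries. It was detected in all 6 CD27+CD69- libraries, with 0.885 to 214 CPM (median 12.5) and 396 counts in all. Replicates 1 and 2 of that population had 1.46 and 0.885 CPM. In them 3 counts are worth 1.48 and 1.35 CPM before TMM scaling, so detection there rests on very few counts. CD11b+CD69+ libraries had 0 to 49.9 CPM (median 4.69), with replicates 1, 4 and 5 at 0, and CD27+CD69+ libraries 0 to 62.6 CPM (median 0.465). The CD69- groups did not overlap, though by very few counts in those replicates. Pooled CPM was at least 166-fold higher in CD27+CD69- libraries, set against a floor of 3 counts over the 6 CD11b+CD69- libraries (0.212 CPM). The adjusted p was 0.0212. Without CD27+CD69- replicate 6 the pooled level was at least 58.6-fold higher (adjusted p = 0.0355). With the marker covariates the adjusted p was 0.703. The call was also lost with no filter on low counts (adjusted p = 0.0542) and without replicate 5 (0.0509), and it held in 12 of 15 alternatives.

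The CD11b+CD69+ level of Hspb1 was at least 67.7-fold above the same floor, with adjusted p = 0.139 by edgeR and 0.0236 by DESeq2, and 3 of 6 libraries above 0. Among CD69+ cells the log2 difference was -0.13 (adjusted p = 0.994). In all 3 populations with counts, the highest library was replicate 6. Its melanoma marker sum was 5583 CPM in CD27+CD69-, 58.8 CPM in CD27+CD69+ and 2.06 CPM in CD11b+CD69+ libraries, each beside 214, 62.6 and 49.9 CPM of Hspb1. Fibroblast markers gave 4835 CPM in the CD27+CD69- library, 5.73 CPM in the CD27+CD69+ one and 0 in the CD11b+CD69+ one. A processed copy, Hsp25-ps1, shares 51.6% of the 50-base windows of Hspb1 and held 7 counts in all 24 libraries.

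**Figure D3:**
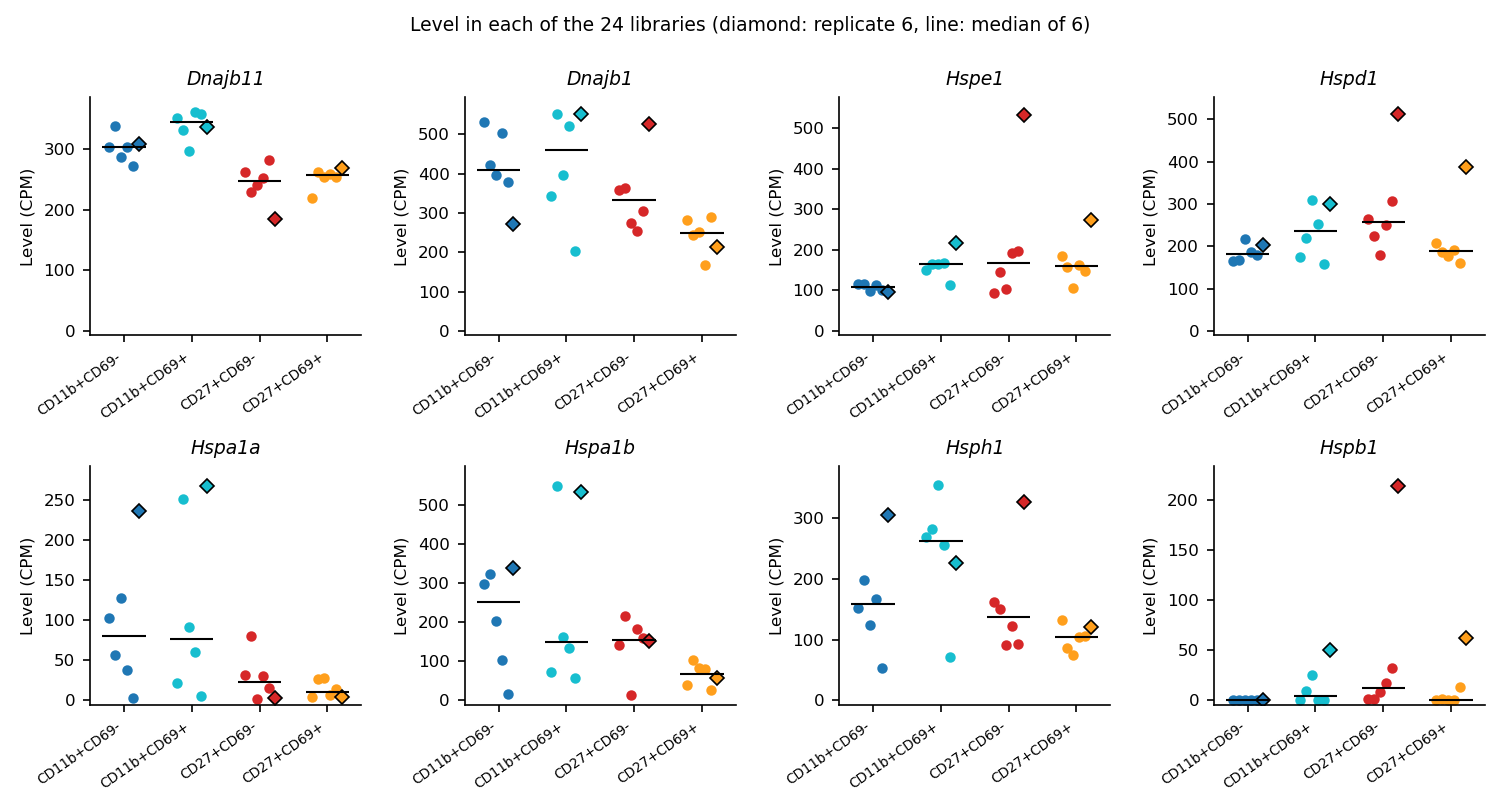
CPM of 8 members in each of the 24 libraries; points are replicates 1 to 5, diamonds replicate 6, and lines the median of 6 libraries. Dnajb11 is lower in CD27+ than in CD11b+ libraries with little spread, Hspa1a and Hspa1b spread widely within CD11b+ populations, and the diamonds carry the highest Hspe1, Hspd1 and Hspb1 values of the CD27+ populations.

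The cytosolic Hsp90 genes passed in no comparison. Hsp90aa1, the inducible form, had 528 to 704 CPM (median 612) in CD11b+CD69-, 566 to 861 CPM (median 712) in CD11b+CD69+ and 427 to 813 CPM (median 497) in CD27+CD69+ libraries. In CD27+CD69- libraries it ran from 295 to 2476 CPM (median 640.2), where the highest value, in replicate 6, was 4.26 times the median of the other 5. Hsp90ab1, the constitutive form, had medians of 1452 CPM (CD69-) and 1784 CPM (CD69+) in CD11b+ cells, and of 1449 and 1585 CPM in CD27+ cells. Its lowest library had 1243 CPM and its highest, CD27+CD69- replicate 6 again, 2685 CPM. Of the 50-base windows of Hsp90aa1, 58.5% also occur in another gene, mostly the copy Gm12346, which held 214 counts in all.

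Of the cytosolic and nuclear J-domain proteins, 1 of 6 passed. Dnajb1 (ENSMUSG00000005483, chromosome 8, 83608193 to 83612653, plus strand), the inducible Hsp40 that works with Hspa1a and Hspa8, had 272 to 531 CPM (median 409) in CD11b+CD69- and 204 to 552 CPM (median 459) in CD11b+CD69+ libraries. It had 255 to 527 CPM (median 332) in CD27+CD69- and 167 to 288 CPM (median 248) in CD27+CD69+ libraries. All 6 CD27+CD69+ libraries lay below the CD11b+CD69+ median, and the groups overlapped only through CD11b+CD69+ replicate 5. The log2 difference among CD69+ cells was -0.82 (SE 0.21), with adjusted p = 0.0346. It passed in 8 of 15 alternatives and did not without replicate 2, 3, 4 or 6 (adjusted p = 0.189, 0.0885, 0.202 and 0.0828), in limma-voom (0.0850) or in 2 other fits, one of them without TMM scaling. Melanoma markers stood at 0 to 58.8 CPM and fibroblast markers at 0 to 5.73 CPM in these 12 libraries. T cell markers moved with the difference, at 53.6 to 195 CPM in CD11b+CD69+ and 715 to 1801 CPM in CD27+CD69+ libraries. NK cell markers also differed, at 22001 to 26289 CPM in CD11b+CD69+ and 12093 to 14467 CPM in CD27+CD69+ libraries. The part of either in the Dnajb1 difference was not tested.

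Among CD69- cells the Dnajb1 difference was -0.23 (SE 0.21, adjusted p = 0.568), and CD69+ differed from CD69- libraries by -0.55 in CD27+ cells (SE 0.21, adjusted p = 0.237). Dnaja1, an Hsp70 partner of another class, had medians of 452, 414, 447 and 369 CPM, in the same order of populations, and a CD69 difference of -0.45 in CD27+ cells (SE 0.19, adjusted p = 0.326). That difference was -0.19 without CD27+CD69- replicate 6 and 0.27 with the marker covariates (adjusted p = 1). Dnaja2, close in class to Dnaja1, had differences between -0.06 and 0.00 in the 4 comparisons. Dnajb4, Dnajb6, which blocks aggregation, and Dnajc7, which binds both Hsp70 and Hsp90, passed in no comparison.

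Cochaperones passed in no comparison by edgeR, and DESeq2 called 1, Bag3. Stip1 had 226 to 418 CPM (median 323) in CD11b+CD69- and 361 to 565 CPM (median 401) in CD11b+CD69+ libraries. All 6 CD69+ libraries were above the CD69- median; the log2 difference was 0.41 (SE 0.15, adjusted p = 0.157). CD27+CD69+ libraries, at 253 to 383 CPM (median 327), were below CD11b+CD69+ libraries by -0.42 (SE 0.15, adjusted p = 0.181). Bag3, an exchange factor that feeds clients to autophagy, had 16.4 to 116 CPM (median 38.4) in CD27+CD69- and 6.04 to 24.4 CPM (median 13.3) in CD27+CD69+ libraries. All 6 of the latter were below the CD27+CD69- median with some overlap, and the log2 difference was -1.70 (SE 0.60, adjusted p = 0.185), or -1.17 without CD27+CD69- replicate 6. Among CD69- cells DESeq2 gave Bag3 a difference of 1.72 between CD27+ and CD11b+ libraries (adjusted p = 0.0251), and it called Bag3 for any difference as well. For that comparison DESeq2 was the only one of 15 alternatives in which Bag3 passed. By edgeR without CD27+CD69- replicate 6 the difference was 1.14 (adjusted p = 0.297). In CD11b+ cells the Bag3 medians were 13.7 (CD69-) and 16.9 CPM (CD69+). Bag1 had medians of 357 and 314 CPM in CD11b+ cells and 302 and 331 CPM in CD27+ cells, CD69- first. Chordc1, an Hsp90 partner, Ahsa1, which speeds the Hsp90 ATPase, and Fkbp4, an immunophilin of steroid receptor complexes, had differences between -0.44 and 0.49.

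The heat shock factors were expressed at low levels. Hsf1, the main regulator of the cytosolic response, had medians of 62.4 CPM (CD69-) and 88.2 CPM (CD69+) in CD11b+ cells and of 79.3 and 93.3 CPM in CD27+ cells, and ranged from 49.6 to 109.9 CPM over all 24. Its log2 differences lay between 0.10 and 0.34 in the 4 comparisons and none passed. Hsf2, a relative of Hsf1, had counts in 20 of 24 libraries and at most 17.3 CPM, with 228 counts in all. No difference in Hsf2 passed. The SE of its log2 differences was about 1.1, so only a large difference could have been seen.

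Mitochondrial chaperones held 1 of the called members. Hspe1 (ENSMUSG00000073676, chromosome 1, 55088132 to 55091307, plus strand), the Hsp10 lid of the chaperonin, had 95.1 to 116 CPM (median 108) in CD11b+CD69-, the narrowest range of the 4 populations. It had 113 to 218 CPM (median 165) in CD11b+CD69+, 93.4 to 532 CPM (median 168.5) in CD27+CD69- and 105 to 273 CPM (median 159.5) in CD27+CD69+ libraries. In CD27+CD69- cells 4 of 6 libraries lay above the CD11b+CD69- median and replicates 1 and 3 did not, so the groups overlapped. The log2 difference among CD69- cells was 1.01 (SE 0.30), with adjusted p = 0.0232. Without CD27+CD69- replicate 6, the library at 532 CPM, it was 0.49 (adjusted p = 0.174), and with the marker covariates it was -0.19 (adjusted p = 0.995). The call was also lost in limma-voom (0.64, adjusted p = 0.140), with only the compared populations in the fit (adjusted p = 0.0745), and without replicate 4, 5 or 6 (adjusted p = 0.0660, 0.0646 and 0.186).

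Hspd1 (ENSMUSG00000025980, chromosome 1, 55077835 to 55088243, minus strand), the Hsp60 barrel that Hspe1 caps, had medians of 183 CPM (CD69-) and 236 CPM (CD69+) in CD11b+ cells, and of 257 and 189.7 CPM in CD27+ cells. Among CD69- cells its ranges were 164 to 218 CPM in CD11b+ and 179 to 513 CPM in CD27+ libraries, which overlapped, and its difference was 0.66 (SE 0.22, adjusted p = 0.0520). It passed in 6 of 15 alternatives, among them DESeq2 (0.70, adjusted p = 0.0223), and was 0.42 without CD27+CD69- replicate 6 (adjusted p = 0.233). Because exons of this pair overlap on opposite strands and the library chemistry keeps no strand, reads in the overlap cannot be told apart. Copies of Hspd1 share 44.8% of its 50-base windows; the main one, Hspd1-ps3, held 51 counts. Hspa9, the mitochondrial Hsp70, had medians of 155, 193, 269.6 and 216 CPM, in the same order, and a difference of 0.54 among CD69- cells (SE 0.22, adjusted p = 0.117). Dnaja3, its J-domain partner, had a difference of -0.14 there.

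In the ER group, Dnajb11 passed in both comparisons of CD27+ with CD11b+ cells. Dnajb11 (ENSMUSG00000004460, chromosome 16, 22857845 to 22879634, plus strand), the BiP partner ERdj3, which binds unfolded secretory proteins, had 273 to 339 CPM (median 304) in CD11b+CD69- and 298 to 362 CPM (median 345) in CD11b+CD69+ libraries. It had 186 to 283 CPM (median 247) in CD27+CD69- and 220.0 to 269.5 CPM (median 257) in CD27+CD69+ libraries. Among CD69+ cells the groups did not overlap, with all 6 CD27+ libraries below all CD11b+ libraries. The log2 difference was -0.42 (SE 0.095), with adjusted p = 0.0127, and it was -0.42 without CD27+CD69- replicate 6 (adjusted p = 0.00354). It lay between -0.46 and -0.38 in all 15 alternatives and passed in 10; without replicate 1, 2, 4 or 5 and with no filter on low counts the adjusted p was between 0.0520 and 0.0882.

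Among CD69- cells the Dnajb11 groups overlapped, with CD27+CD69- replicate 5 inside the CD11b+CD69- range. The difference was -0.29 (SE 0.095), with adjusted p = 0.0426. It passed in 2 of 15 alternatives, DESeq2 and the fit without replicate 5, and was -0.22 without CD27+CD69- replicate 6 (adjusted p = 0.125) and -0.08 with the marker covariates (adjusted p = 0.995). CD69+ differed from CD69- libraries by 0.17 in CD11b+ and 0.04 in CD27+ cells, and neither passed. No 50-base window of Dnajb11 occurs in another gene, and its exons overlap no other gene.

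Hspa5, the ER Hsp70 that also restrains the sensors of the unfolded protein response, had 1383 to 1825 CPM (median 1576) in CD11b+CD69- and 1421 to 2255 CPM (median 2045) in CD11b+CD69+ libraries. In CD11b+ cells 5 of 6 CD69+ libraries lay above the CD69- median, with a difference of 0.30 (SE 0.12, adjusted p = 0.238). CD27+CD69- libraries had 1403 to 2600.0 CPM (median 1520.2) and CD27+CD69+ libraries 1454 to 1695 CPM (median 1649). The CD69 difference was lower in CD27+ than in CD11b+ cells by -0.44 (SE 0.17, adjusted p = 0.360). Hsp90b1, whose window with ER stress elements is shown above, had 512 to 811 CPM (median 658) in CD11b+CD69+ and 444 to 614 CPM (median 521) in CD27+CD69+ libraries. All 6 of the latter were below the CD11b+CD69+ median with overlap, and the difference was -0.33 (SE 0.10, adjusted p = 0.112). Dnajc3, a partner of Hspa5 and an inhibitor of the stress kinase PERK, differed by at most 0.06 in either direction, and Dnajb9 and Hspa13 passed in no comparison. In the comparison of CD69 differences all 6 ER members were below 0, with a median of -0.39, while 5526 of the 10536 genes were below 0.

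Summed by compartment, the ER members of CD11b+ cells gave 2736 to 3143 CPM (median 2849) in CD69- and 3012 to 3696 CPM (median 3370) in CD69+ libraries. In CD27+ cells they gave 2593 to 4009 CPM (median 2669) in CD69- and 2601 to 2834 CPM (median 2789) in CD69+ libraries. Among CD69+ cells these sums did not overlap. The mitochondrial members gave medians of 494, 673, 722 and 621 CPM in the same order, and the cytosolic Hsp90 genes 2046, 2496, 2200 and 2049 CPM. Hsp90 sums were tight in CD11b+CD69- libraries, 2018 to 2134 CPM, and wide in CD27+CD69- libraries, 1538 to 5161 CPM.

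**Figure D4:**
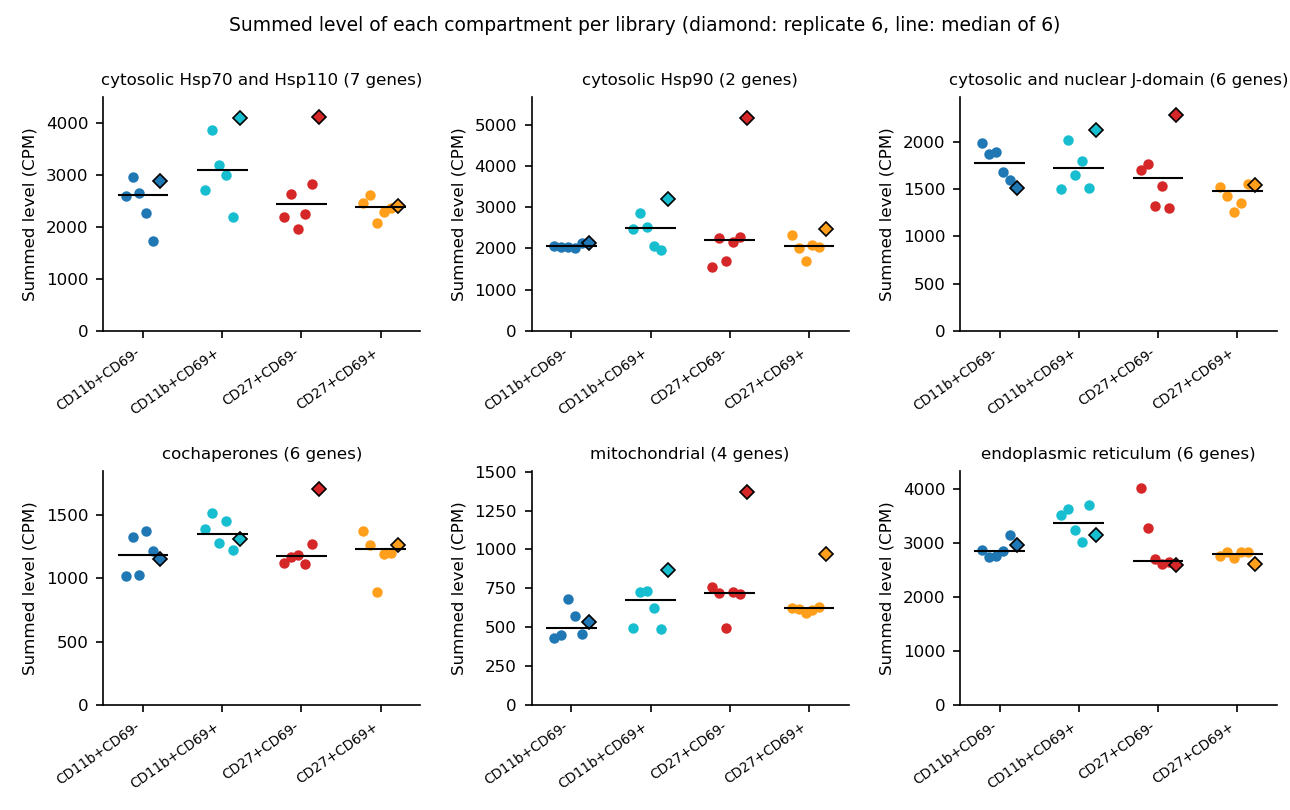
Summed CPM of 6 compartments in each of the 24 libraries; points are replicates 1 to 5, diamonds replicate 6, lines the median of 6. ER sums of all 6 CD11b+CD69+ libraries lie above all CD27+CD69+ libraries. CD27+CD69- replicate 6 has the highest sum of any library in every panel but the ER one. For Hsp70 and Hsp110 it does so narrowly (4126 CPM, against 4096 CPM in CD11b+CD69+ replicate 6).

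CD27+CD69- replicate 6 differed from its 5 sister libraries in many chaperones, given here as 1 library with no test. Of the 34 members, 16 (47.1%) were above all 5 sister libraries and 4 (11.8%) below, against 19.7% and 20.7% of all genes. The high members were mostly cytosolic or mitochondrial: relative to the median of the sisters, Hspb1 was 27.4 times as high, Hsp90aa1 4.26, Hspe1 3.69, Bag3 3.53, Hsph1 2.67, Fkbp4 2.40, Dnaja1 2.24, Hspa8 2.09, Hspd1 2.05 and Hsp90ab1 2.02 times. Dnajc7 (0.818 times) and 3 of the 6 ER members were below all sisters, the latter being Hsp90b1 (0.881), Dnajb11 (0.734) and Dnajc3 (0.813); 2 ER members were above, Hspa13 (1.85) and Dnajb9 (1.65). Hspa1a was low there, at 2.37 CPM or 0.0778 times the median of the sisters, and Hspa1b near it at 0.951. The library's marker sums of 5583 CPM (melanoma) and 4835 CPM (fibroblast) stand beside these values, and their part in them was not tested gene by gene. Part of this profile recurred in CD27+CD69+ replicate 6, which had 58.8 CPM of melanoma markers. Among CD27+CD69+ libraries it was highest for Hspb1, Hsp90aa1, Hspe1, Bag3, Fkbp4, Dnaja1 and Hspd1. For Hsph1, Hspa8 and Hsp90ab1 it was not.

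**Figure D5:**
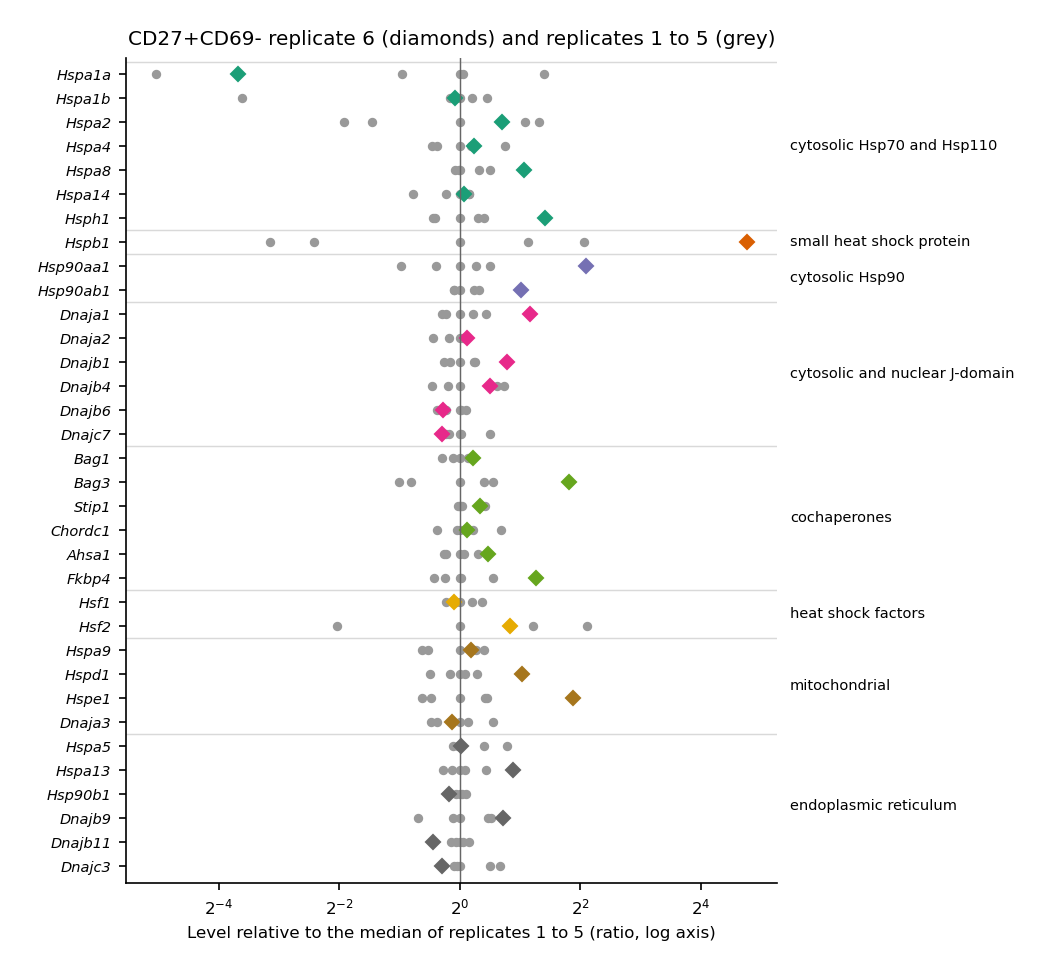
Level of each member in the CD27+CD69- libraries relative to the median of replicates 1 to 5 (ratio, log axis); grey points are replicates 1 to 5, coloured diamonds replicate 6, and values of 0 are not drawn. Diamonds of Hspb1, Hsp90aa1, Hspe1 and Bag3 lie far to the right, those of Hsp90b1, Dnajb11 and Dnajc3 to the left of all grey points, and that of Hspa1a far to the left but within them.

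The number after M in the titles recurs once in each population, and a test of any difference between numbers, with population in the fit, passed for 0 members by edgeR and 0 by limma-voom (0.038% of all genes by edgeR). At an unadjusted p under 0.05 there were 7 members (20.6%, against 4.76% of all genes): Dnaja1, Hsp90aa1, Hsp90ab1, Hspb1, Hspd1, Hspe1 and Hsph1. All 7 are among the 16 that were highest in CD27+CD69- replicate 6. Of them Dnaja1, Hsp90aa1, Hspb1, Hspd1 and Hspe1 were also highest in replicate 6 among CD27+CD69+ libraries, and Hsp90ab1 and Hsph1 were not.

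Genes that share the members' pathways, from 4 lists that hold no member, were tested in the same fit. Of the 14 subunits of TRiC, the cytosolic chaperonin that folds actin and tubulin, and of prefoldin, which loads it, Cct5 was higher in CD69+ than CD69- libraries in CD11b+ cells by 0.45 (SE 0.12, adjusted p = 0.0283), with 479 to 633 CPM against 371 to 464 CPM and no overlap. That was 1 of 14, against 1.64% of all genes. Among CD69- cells Cct5 was higher in CD27+ libraries by 0.44 (adjusted p = 0.0105) and Pfdn2, a prefoldin subunit, lower by -0.46 (adjusted p = 0.0376). The median of this list was 0.13 for the CD69 difference in CD11b+ cells, against 0.00 for all genes. Of 14 tested cytosolic cofactors and small chaperones, only Cryab, a lens crystallin and small heat shock protein like Hspb1, passed anywhere: it had 13 counts in CD11b+CD69- and 1645 in CD27+CD69- libraries, with adjusted p = 0.0173. Without CD27+CD69- replicate 6 the count was 638 and the adjusted p 0.0533.

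Of 12 other mitochondrial chaperones and proteases, Htra2, a protease of the intermembrane space, had 4.87 to 9.39 CPM in CD11b+CD69-, 16.7 to 38 CPM in CD11b+CD69+ and 12.6 to 26.8 CPM in CD27+CD69- libraries. Neither of the latter groups overlapped the first, and the log2 differences were 1.84 (SE 0.38, adjusted p = 0.00458) and 1.28 (SE 0.37, adjusted p = 0.0221). Without CD27+CD69- replicate 6 the second was 1.21 (adjusted p = 0.0506). Its CD69 difference was lower in CD27+ than in CD11b+ cells by -2.26 (SE 0.52, adjusted p = 0.0412), or -2.19 without that library (adjusted p = 0.0701). Htra2 alone of this list passed in these comparisons, against 1.64%, 7.46% and 0.342% of all genes in the same directions. Exons of Htra2 overlap those of Aup1 and Loxl3 on the opposite strand. Because the library chemistry keeps no strand, reads in the overlap cannot be told apart.

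Of 22 other ER chaperones and unfolded protein response genes, 2 passed as higher and 1 as lower in CD27+ libraries among CD69- cells, against 7.46% and 4.92% of all genes, and 1 as lower among CD69+ cells (0.911% of all genes). For CD69+ against CD69- libraries 1 was higher in CD11b+ cells (1.64% of all genes) and 2 were lower in CD27+ cells (1.30% of all genes). Herpud1, which serves the degradation of ER proteins, had lower levels in CD27+ libraries both among CD69- cells (-0.60, SE 0.12, adjusted p = 0.00132) and among CD69+ cells (-0.66, SE 0.13, adjusted p = 0.00244), with no overlap in either. The disulfide isomerase Pdia4 was higher in CD27+ libraries by 0.54 among CD69- cells (adjusted p = 0.00590) and lower in CD69+ than CD69- libraries by -0.54 in CD27+ cells (adjusted p = 0.0310, or 0.0522 without CD27+CD69- replicate 6). The contrast of its CD69 differences, CD27+ minus CD11b+, was -0.85 (SE 0.19, adjusted p = 0.0296). Pdia3, a glycoprotein isomerase, was higher in CD69+ libraries of CD11b+ cells by 0.35 (adjusted p = 0.0363), and P4hb, protein disulfide isomerase itself, was lower in CD69+ libraries of CD27+ cells by -0.55 (adjusted p = 0.0382), or -0.37 without CD27+CD69- replicate 6 (adjusted p = 0.115). Serpinh1, the collagen chaperone, had 0 counts in both CD11b+ populations and was at least 401-fold higher in CD27+CD69- libraries than the floor of CD11b+CD69- libraries (at least 335-fold without replicate 6), beside the fibroblast marker sums given above.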

How the data were processed

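Poly(A) RNA of 100 sorted cells per library was copied with SMART-Seq v4 and made into Nextera XT libraries, per the labels' protocols; this keeps no strand and adds no molecular identifiers, so a floor covers counting error only. The deposited values are raw, whole-number counts for each Ensembl gene, and the submitters' processing notes name GRCm38, HTSeq and Picard without versions; for the aligner, annotation release and strand setting the sources used here give nothing. Genes without a symbol (3433) held 0.174% of counts.

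Genes were tested by quasi-likelihood in edgeR 4.0.16 (R 4.3.3), with 4 group means over all 24 libraries, TMM scaling (factors 0.958 to 1.06), filterByExpr (minimum count 10; 10536 genes) and Benjamini-Hochberg adjustment over all genes, with a threshold of 0.05; the fit was tested on simulated counts. CPM are counts scaled by library size and TMM, and a fold against a group at 0 is a lower bound against 3 counts over its 6 libraries. The alternatives were DESeq2 1.42.0, limma-voom (limma 3.58.1), no TMM, no filter (24426 genes), a mean of 10 CPM (8262 genes), a replicate block, fibroblast and melanoma marker covariates, only the populations compared, and each replicate number left out; leaving out CD27+CD69- replicate 6 was added after seeing the data. Gene models were GENCODE M21. Values are printed for members that passed, for Hspa1a, Hspa1b, Hspb1, Hsf1, Hsf2, and for the 2 most abundant members and the 1 with the smallest p of each compartment; Hsph1, Bag3 and a few others were added after their values were seen. Members and lists were chosen with earlier results of these data known.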

Additional observations from a re-analysis of the deposited data

Results flagged for a closer look

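In a group of 6 libraries, a highest or lowest library was picked out when its gap to the next one exceeded Dixon's critical share of the group's range. Chance does so in about 1 group in 20 for independent, normally distributed values. CPM need not be normal, the groups share libraries, and sums hold members counted already, so that rate is no measure of excess here. A library was picked out in 16 of 103 groups of member levels and compartment sums. CD27+CD69- replicate 6 accounted for 8 of the 16. There it was the high library for Hspb1 (214 CPM), Hsp90aa1 (2476 CPM), Hsp90ab1 (2685 CPM), Dnaja1 (926 CPM) and Hspe1 (532 CPM), and for the sums of cytosolic Hsp90 (5161 CPM), cochaperones (1703 CPM) and mitochondrial members (1372 CPM).

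Replicate 6 was also the high library in CD27+CD69+ cells for Hspb1 (62.6 CPM), Hsp90aa1 (813 CPM), Hsf2 (9.08 CPM), Hspd1 (388 CPM) and the mitochondrial sum (969 CPM). The low libraries were CD27+CD69- replicate 3 for Hspa1b (12.9 CPM), CD27+CD69+ replicate 1 for Dnajb11 (220.0 CPM) and CD27+CD69+ replicate 3 for the cochaperone sum (888 CPM).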

How the results depend on the processing

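The comparisons of CD69+ with CD69- cells in CD27+ cells, of the CD69 differences and of replicate numbers called 0 members under every alternative run for them. For CD69+ against CD69- in CD11b+ cells DESeq2, the replicate block and the fit of only the populations compared called 1 member each; the fits without 1 replicate number called 0. Between CD27+ and CD11b+ among CD69- cells, 3 members became 5 with DESeq2, 1 with limma-voom, with only the populations compared and without CD27+CD69- replicate 6, and 0 with the covariates; fits without 1 replicate number called 1 to 4. Among CD69+ cells, 2 became 4 with DESeq2 and 1 with no TMM, limma-voom or no filter; fits without 1 replicate number called 0 to 2. Any difference gave 6 with DESeq2 and 4 with the block, against 2, and 1 to 4 without 1 replicate number. The sign reversed for 2 values, both with the covariates: Hspe1 among CD69- cells (-0.19) and Dnaja1 for CD69 in CD27+ cells (0.27). The fibroblast covariate nearly follows the CD27+CD69- population, so these reversals cannot tell marker RNA from population. Of the alternative values of the 5 called gene and comparison pairs, 40 kept the call, 34 lost it and 1 reversed. The cause was not tested.

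Over all genes, the covariates called 119 against 1304 among CD69- cells, 19 against 195 for CD69 in CD27+ cells, 8 against 61 for the CD69 differences and 638 against 1483 for any difference. DESeq2 called 483 against 289 for CD69 in CD11b+ cells, 316 against 200 among CD69+ cells and 169 against 61 for the CD69 differences. With no filter the counts were 188 against 289 for CD69 in CD11b+ cells, 405 against 195 for CD69 in CD27+ cells and 3251 against 1483 for any difference; limma-voom called 293 for CD69 in CD27+ cells and 76 against 4 for replicate numbers. Fits without 1 replicate number called 183 to 259 for CD69 in CD11b+ cells, 109 to 203 in CD27+ cells, 116 to 188 among CD69+ cells and 17 to 49 for the CD69 differences; without CD27+CD69- replicate 6 alone, 123 were called for CD69 in CD27+ cells.

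The labels do not say what the replicate number marks. With the replicate block, 3 members passed among CD69- cells (Hspb1, Hspd1 and Hspe1) and 2 among CD69+ cells (Dnajb11 and Hsph1); Dnajb1 among CD69+ cells then had -0.79 (adjusted p = 0.0752), and without TMM scaling it sat at the threshold. Deviations of same-numbered libraries correlated at a median of 0.002 over 36 pairs (-0.029 to 0.207, with 1 over 0.1), and 4 of 24 libraries correlated best with their own number.

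Low counts and spread between libraries limit Hsf2, with 228 counts over 24 libraries, and Hspb1, which had 0 counts in 12 of them.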

Other observations

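Immediate early genes, which cells switch on within minutes of stimulation or handling, were measured as a list of 14 beside the chaperones. Their summed level ran from 10432 to 13022 CPM in CD11b+CD69-, 7532 to 9494 CPM in CD11b+CD69+, 5948 to 14964 CPM in CD27+CD69- and 7032 to 8247 CPM in CD27+CD69+ libraries, so the CD11b+ groups did not overlap. By edgeR's quasi-likelihood test 3 were lower and 0 higher in CD69+ than CD69- libraries of CD11b+ cells (1.10% of all genes were lower): Nr4a1, a nuclear receptor (-1.18, SE 0.25, adjusted p = 0.00609), Zfp36, which destabilises cytokine mRNA (-0.91, SE 0.17, adjusted p = 0.00162), and Ier2 (-0.86, SE 0.14, adjusted p = 4.1e-04). In CD27+ cells 2 were lower (1.30% of all genes), Nr4a1 (-0.96, SE 0.25, adjusted p = 0.0437) and the transcription factor Egr1 (-1.22, SE 0.30, adjusted p = 0.0297); both passed without CD27+CD69- replicate 6 (adjusted p = 0.0460 and 0.0486). The list's median was -0.42 in CD11b+ and -0.36 in CD27+ cells, against 0.00 and -0.01 for all genes, while the chaperone medians were 0.17 and -0.17.

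Among CD69- cells 4 of the 14 were lower in CD27+ than in CD11b+ libraries, against 4.92% of all genes (Ier2, Jund, Zfp36 and Nr4a1, by -0.70, -0.82, -0.73 and -0.86) and 1 was higher (Socs3, a cytokine signalling inhibitor, by 0.97, adjusted p = 0.0213). Without CD27+CD69- replicate 6 Nr4a1 no longer passed there (-0.79, adjusted p = 0.0523) and the other 4 did. None passed among CD69+ cells by edgeR. The 8 members with paired heat shock units before the RefSeq start all had a lower CD69 difference in CD27+ than in CD11b+ cells. Their median was -1.05. Of the 20 without, 14 did so, with a median of -0.13 over the 20. Of all genes tested, 5526 of 10536 did. This split was made after the values were seen, includes CD27+CD69- replicate 6 and carries no test. In that library Hsph1, Hspb1, Dnaja1, Fkbp4 and Hspe1 were above all sister libraries, and Hspa1a, Hspa1b and Dnajb6 were within their range. The 8 also include Hspa1a and Hspa1b, which share much of their sequence, and Hspb1, whose fitted difference is no measure of size.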
